A study of Mus musculus with 20 samples.

Results

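The genes described here encode chemokines, small secreted proteins that direct the movement of cells, and the receptors through which cells sense them. They were picked by symbol alone: Ccl, Cxcl, Ccr, Cxcr and Xcr symbols with a number, plus Cx3cl1, Cx3cr1 and Xcl1, from probe sets annotated to exactly 1 symbol. Where a gene had several such probe sets, the one of highest mean signal stood for it. This gave 49 genes, 33 ligands and 16 receptors, of 18194 genes with a probe set of their own. A gene was tested where its mean signal over the 19 grouped arrays was at least 300, which held for 36 of the 49 members (27 ligands and 9 receptors). The 13 members under that minimum were Ccl1, Ccl3, Ccl20, Ccl22, Ccr3, Ccr4, Ccr7, Ccr8, Ccr10, Cxcl3, Cxcr2, Cxcr5 and Xcl1. Nearest to the minimum were Ccr9 (329.6) and Cxcr6 (332) above it, and Ccr4 (266) and Xcl1 (241) below it. A gene can reach the minimum through groups in which it is high: 7 tested members, Ccl2, Ccl7, Ccr9, Cxcl2, Cxcl5, Cxcl10 and Cxcl11, had a control mean under 300. Ccl19, the Ccl21 genes, Ccl26 and Cxcr1 were not analysed here.

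The samples were flank tissue of mice taken at several times of the Ad-VEGF-A164 model. Ad-VEGF-A164 is an adenoviral vector through which infected cells make VEGF-A164, an isoform of the endothelial growth factor VEGF-A. RNA was measured on Affymetrix Mouse Genome 430 2.0 arrays, in 5 control arrays of day 0 (A to E), 4 arrays of day 5 (B to E), 5 of day 20 (A to E) and 5 of day 60 (A to E). A further array had a day 5 title but the source name of the day 0 control, and it entered no comparison. The labels give no strain, sex, age, dose or promoter, and name no group with an empty vector, so effects of VEGF-A164 and of the vector itself cannot be told apart. No label says that arrays came from separate animals, so the spread behind each p-value is that between arrays, which may be technical, and the number of arrays limits the precision.

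The Vegfa signal was 66.5 to 467 in the day 0 controls, 3928 to 9410.0 at day 5, 7128 to 13514 at day 20 and 219 to 1076 at day 60. All listed fibroblast, keratinocyte and skeletal muscle markers had a mean signal over 300, as did the 4 adipocyte markers with a probe set and the 6 luminal epithelium markers. The ungrouped array, with a Vegfa signal of 11111, had 21 of the 36 tested members above every control array and 5 below. Counted as a control, it ended 18 of the 70 calls that these members gave over 6 comparisons, while counted as day 5 it ended none of them. Day 5 array B stood apart from the other 3 day 5 arrays in 8 members (Ccl6, Ccl7, Ccl11, Ccl24, Ccl27a, Cxcl2, Cxcl13 and Cxcl15).

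Chemokines bind receptors coupled to G proteins, and cells that carry the receptor move towards the source. The families CC, CXC, C and CX3C are named after the spacing of their first cysteines. Some ligands are switched on in injured or stimulated tissue, and others are made by resting tissue. Ligands of CCR2 draw monocytes out of the blood, the CXC ligands of CXCR2 draw neutrophils and favour vessel growth, and the interferon-induced ligands of CXCR3 draw activated T and NK cells and restrain vessel growth. VEGF-A is itself known to attract monocytes, and CXCR4 with its ligand Cxcl12 to hold such cells near growing vessels.

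Promoters of 36 of the 49 members (26 of the 36 tested) were found in the RefSeq table of GRCm38.p6, each running from 250 bases before to 50 bases after the annotated start. Those of Ccl12 and Ccl8 are shown because both genes lie in 1 cluster on chromosome 11 and rose at day 5, and those of Cxcl9 and Cxcl10 because they are neighbours on chromosome 5 that rose at day 20. That of Cxcl2 is shown for its motif and because its gene was raised at day 20. Capitals mark matches, on either strand, to a TATA box (TATAAA), an AP-1 type motif (TGANTCA), a kappaB-type motif (GGGA, 2 bases of any kind, TTCC) or an interferon response type motif (GAAA, 2 bases of any kind, GAAA).
Ccl12, chr11:82101595-82101894, + strand: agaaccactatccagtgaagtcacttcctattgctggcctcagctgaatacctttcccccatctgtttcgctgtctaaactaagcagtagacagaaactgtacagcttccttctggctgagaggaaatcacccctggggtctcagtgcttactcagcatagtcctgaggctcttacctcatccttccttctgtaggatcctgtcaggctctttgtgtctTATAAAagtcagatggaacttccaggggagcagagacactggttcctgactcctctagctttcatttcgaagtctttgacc
Ccl8, chr11:82114935-82115234, + strand: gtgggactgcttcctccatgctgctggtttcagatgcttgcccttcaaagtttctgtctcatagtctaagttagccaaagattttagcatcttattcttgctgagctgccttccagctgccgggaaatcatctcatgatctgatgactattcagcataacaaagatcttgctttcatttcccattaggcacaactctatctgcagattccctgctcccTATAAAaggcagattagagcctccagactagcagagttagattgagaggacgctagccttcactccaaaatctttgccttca
Cxcl9, chr5:92328030-92328329, - strand: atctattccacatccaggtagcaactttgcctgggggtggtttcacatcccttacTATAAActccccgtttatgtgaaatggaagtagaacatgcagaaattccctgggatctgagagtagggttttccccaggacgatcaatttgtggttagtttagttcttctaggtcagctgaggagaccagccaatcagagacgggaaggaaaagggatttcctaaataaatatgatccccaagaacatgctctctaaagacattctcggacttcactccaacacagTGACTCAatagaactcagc
Cxcl10, chr5:92348840-92349139, - strand: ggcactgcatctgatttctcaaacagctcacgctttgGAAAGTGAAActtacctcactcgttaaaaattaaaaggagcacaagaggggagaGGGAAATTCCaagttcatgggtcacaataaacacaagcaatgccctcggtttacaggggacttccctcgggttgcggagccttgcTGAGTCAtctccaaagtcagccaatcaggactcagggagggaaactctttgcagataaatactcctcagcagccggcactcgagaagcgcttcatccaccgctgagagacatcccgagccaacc
Cxcl2, chr5:90903649-90903948, + strand: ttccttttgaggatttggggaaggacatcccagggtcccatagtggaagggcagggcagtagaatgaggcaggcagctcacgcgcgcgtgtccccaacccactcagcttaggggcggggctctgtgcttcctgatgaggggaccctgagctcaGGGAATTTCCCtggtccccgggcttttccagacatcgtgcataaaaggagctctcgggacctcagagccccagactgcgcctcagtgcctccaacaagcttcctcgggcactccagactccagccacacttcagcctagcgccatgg

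Positions are counted from the start base as 0. The TATA box of Ccl12 lay at -31 to -26 and that of Ccl8 at -32 to -27, while the match of Cxcl9 lay far upstream at -195 to -190. Cxcl10, known as an interferon target, held 3 kinds of match: an interferon response type motif at -213 to -204, a kappaB-type motif at -159 to -150 and an AP-1 type motif at -74 to -68. Cxcl9 held an AP-1 type match downstream of the start, at 31 to 37. Cxcl2 held kappaB-type matches on both strands that overlap each other, at -97 to -88 and -96 to -87. Over all 32851 promoter windows of the table, 1.47% held the kappaB-type motif, 3.44% the interferon response type, 7.81% the AP-1 type and 13.6% the TATA box. Among the 30 windows of tested members, 3 held the kappaB-type motif (Cxcl1, Cxcl2 and Cxcl10), 2 the interferon response type (Cxcl10 and Cxcl14), 5 the AP-1 type and 10 the TATA box. A match describes letters and is not a site of binding.

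At day 5, 14 of the 36 tested members rose and 3 fell, and the largest rises were those of monocyte-attracting ligands. The comparison asks what the tissue expressed at the first time after the vector. Members higher than control were Ccl2, Ccl5, Ccl6, Ccl7, Ccl8, Ccl9, Ccl12, Cxcl10, Cxcl11 and the receptors Ccr1, Ccr2, Ccr9, Cx3cr1 and Cxcr4, and those lower were Ccl27a, Cxcl15 and Cxcl17. The share called higher was 38.9% of members, beside 16.8% of all 13595 tested genes, and the share called lower was 8.33%, beside 17.5%. The median log2 change was 0.36 over the tested members and -0.07 over all tested genes. Calls are at a Benjamini-Hochberg adjusted p under 0.05 from limma over all tested genes, and changes are differences of log2(signal + 100), which understate the change of low genes. In whole tissue, fewer cells of a type and less RNA per cell cannot be told apart.

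At day 20, 12 of 36 members were higher than control, beside 15.6% of all tested genes, and 3 were lower, beside 14.5%. Ccl2, Ccl5, Ccr2, Ccr9, Cx3cr1, Cxcl10, Cxcl11 and Cxcr4 were higher again, together with Ccl17, Cxcl2, Cxcl5 and Cxcl9. Ccl11, Ccl24 and Cxcl15 were lower. The median log2 change was 0.31 over members and -0.06 over all tested genes. Both comparisons share their control arrays, so the values at each day are set side by side below without a measure of overlap. At day 60 no member was called by limma, beside 0.368% of all tested genes called higher and 0.765% called lower, while 1 was higher (Cxcl13) and 4 were lower (Ccr6, Cxcl9, Cxcl15 and Cxcl17) at an unadjusted p under 0.05. With array weights, limma called 2 members at day 60.

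**Figure D1:**
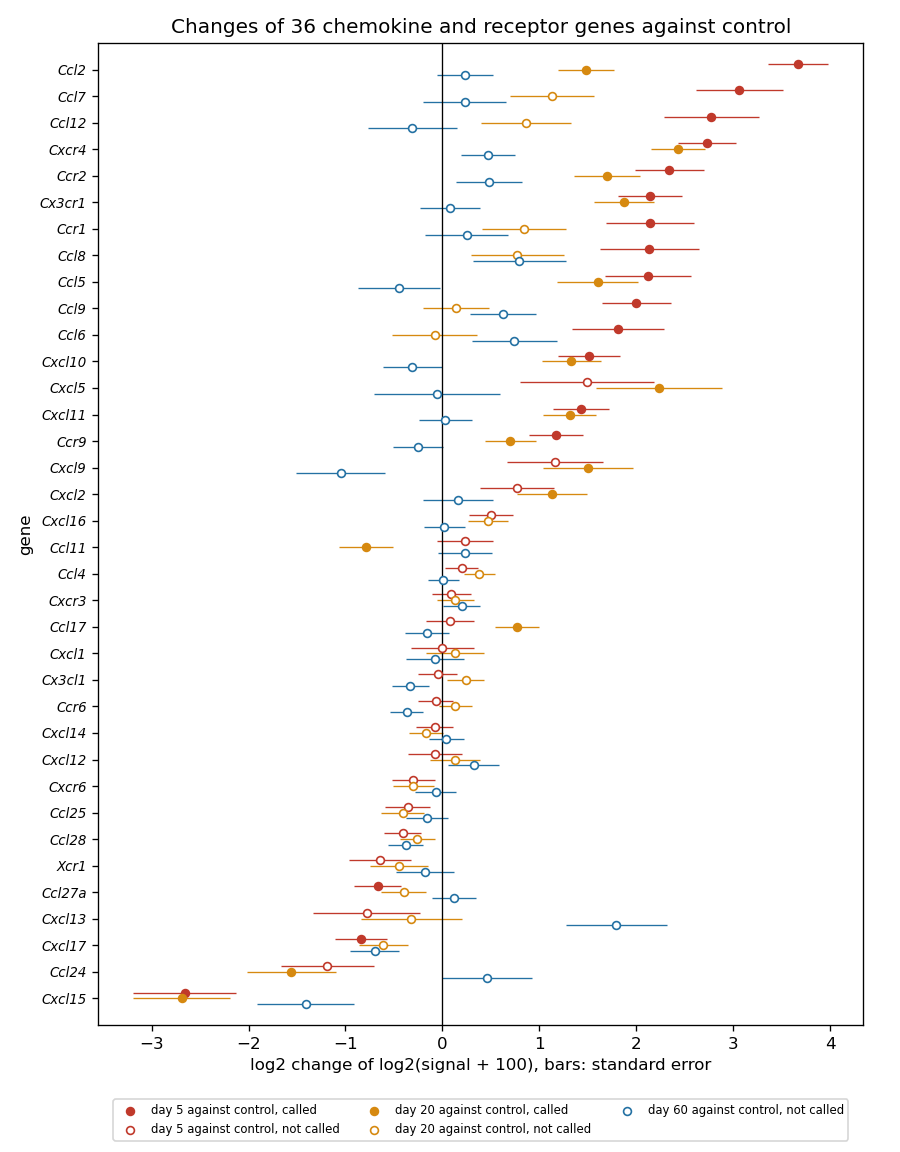
Log2 change of log2(signal + 100) for the 36 tested chemokine and receptor genes at day 5 (red), day 20 (orange) and day 60 (blue) against the day 0 controls. Points are estimates and bars standard errors (n = 4, 5 and 5 arrays against 5), and filled points passed an adjusted p under 0.05. Filled red points reach 3.67 for Ccl2, Cxcl15 lies at the other end, and no blue point is filled.

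The ligands of CCR2 had the largest rises among the ligands at day 5. All 3 tested members of this group, Ccl2, Ccl7 and Ccl12, rose at day 5, and 1 of them, Ccl2, rose at day 20. Ccl2 (monocyte chemoattractant protein 1) had signals of 191, 101, 302, 133 and 176 in the day 0 controls, 7321, 3286, 2602 and 2052 at day 5, 622, 1255, 481, 616 and 521 at day 20 and 232, 262, 123, 236 and 270.2 at day 60. Every day 5 array lay above every day 20 array, and every day 20 array above every control array. The mean was 3815 ± 2391 at day 5, against 181 ± 76.7 in controls (SD, n = 4 and 5), a log2 change of 3.67 ± 0.31 (SE), or 12.7-fold (adjusted p = 9.9e-08). At day 20 the log2 change was 1.48 ± 0.29 (adjusted p = 0.000824), and the fall between day 20 and day 5 was itself called (-2.19 ± 0.31, adjusted p = 0.000417).

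Ccl7, a close relative of Ccl2 that also acts through CCR2, had signals of 222, 202, 483, 322 and 90.0 in the day 0 controls, 6059.7, 2279, 2089.8 and 1927 at day 5, 412, 979, 951, 594 and 461 at day 20 and 601, 265, 25.8, 611 and 339 at day 60. Array B of day 5 was far above the other 3 day 5 arrays, which still lay above every array of the other groups. Against control it changed by 3.06 ± 0.45 on the log2 scale at day 5 (SE, adjusted p = 4.16e-05) and 1.13 ± 0.43 at day 20 (adjusted p = 0.052), which just missed the threshold and passed it when control C, day 5 B, day 20 A, or day 60 A, C or D was left out (adjusted p 0.0168 to 0.0489). The day 20 level was below the day 5 level (-1.94 ± 0.45, adjusted p = 0.0156), a call that ended without day 5 array B (adjusted p 0.0676).

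Ccl12, a mouse CCR2 ligand whose gene neighbours that of Ccl8, had signals of 175, 268, 1286, 969 and 507 in the day 0 controls, 7651, 4456, 2645 and 3178 at day 5, 754, 2217, 1293, 712 and 714 at day 20 and 403, 310.2, 115, 917 and 588 at day 60. Day 5 arrays lay above all others, and the control arrays themselves spread widely. Its log2 change was 2.77 ± 0.49 at day 5 (SE, adjusted p = 0.000232), or 6.82-fold, and 0.86 ± 0.46 at day 20 (adjusted p = 0.166). The day 20 level was lower than at day 5 (-1.90 ± 0.49, adjusted p = 0.0263), and this call ended without day 5 B or C, or without day 20 A, D or E (adjusted p 0.0622 to 0.0942).

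Ccl8, which acts through CCR8 in the mouse, had signals of 5175, 16713, 21015, 15779 and 9977 in the day 0 controls, 59582, 57170.0, 42128 and 60311 at day 5, 14015, 41764, 20547, 22899 and 15533 at day 20 and 39340.3, 9233, 7203, 32682 and 52687 at day 60. The day 5 arrays lay above every control and day 20 array, while day 60 arrays split into 3 high ones (A, D and E) and 2 low ones (B and C). The mean was 54798 ± 8553 at day 5, against 13732 ± 6194 in controls (SD, n = 4 and 5), a log2 change of 2.13 ± 0.51 (SE, adjusted p = 0.00332). It was 0.77 ± 0.48 at day 20 (adjusted p = 0.238) and 0.79 ± 0.48 at day 60 (adjusted p = 0.434). Ccl1, the other CCR8 ligand, was under the minimum, with means of 225 ± 91.3 at day 5 and 156 ± 93.3 in controls (SD, n = 4 and 5), and the receptor gene Ccr8 averaged 67.4.

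Among 4 further tested CC ligands, Ccl5, Ccl6 and Ccl9 rose at day 5, and Ccl4 did not pass the test. Ccl5 (RANTES, made by T cells and macrophages) had signals of 344, 331, 655, 58.6 and 319.9 in the day 0 controls, 2014, 1786, 1704 and 1115 at day 5, 1165, 1247, 1415, 1610.3 and 458 at day 20 and 175, 328, 67.3, 50.9 and 576 at day 60. Day 5 arrays lay above every control, and array E was the low one at day 20. Its log2 change against control was 2.12 ± 0.44 at day 5 (SE, adjusted p = 0.0011) and 1.60 ± 0.42 at day 20 (adjusted p = 0.00701). At day 60 it was lower than at day 20 (-2.05 ± 0.42, adjusted p = 0.00152).

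Ccl6 and Ccl9 are rodent CC chemokines that act through CCR1 and are made by macrophages and other myeloid cells. Ccl6 had signals of 6348, 9866, 17175, 13085 and 11509.5 in the day 0 controls, 69291, 32510.3, 32557 and 31308 at day 5, 11032, 14062, 8083, 13048 and 7496 at day 20 and 44196, 10196, 5292, 26699.9 and 33131 at day 60. Ccl9 had 4929.7, 4782, 9951, 7908 and 6187 in the day 0 controls, 34298, 22302, 27613 and 22491 at day 5, 5738, 11717, 6993, 7914 and 5132 at day 20 and 18966, 5830.4, 4375, 14841 and 13848 at day 60. Both were high in all 4 day 5 arrays, back within the control range or close to it at day 20, and spread widely at day 60, with arrays A, D and E high and B and C low. The day 5 log2 change was 1.81 ± 0.47 for Ccl6 (SE, adjusted p = 0.00564) and 2.00 ± 0.36 for Ccl9 (adjusted p = 0.00027). At day 20 it was -0.08 ± 0.44 for Ccl6 (adjusted p = 0.911) and 0.14 ± 0.34 for Ccl9 (adjusted p = 0.78). The level at day 20 was lower than at day 5 for Ccl6 (-1.89 ± 0.47, adjusted p = 0.0214) and for Ccl9 (-1.86 ± 0.36, adjusted p = 0.00471). The Ccl6 call between these days ended without day 5 B (adjusted p 0.0802) or day 20 E (0.0526).

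Ccl3 (macrophage inflammatory protein 1 alpha) was under the minimum and so was not tested with the others. Its signals were 58.9, 17.3, 34.5, 32.8 and 74.3 in the day 0 controls, 1291, 214, 351 and 369.8 at day 5, 40.8, 36.2, 409, 65.5 and 23.1 at day 20 and 60.8, 89.1, 75.4, 51.3 and 35.8 at day 60. All 4 day 5 arrays lay above every control array, and day 20 array C stood high alone. With no minimum signal its log2 change at day 5 was 1.96 (adjusted p = 0.000801). Ccl4 (macrophage inflammatory protein 1 beta), its neighbour on chromosome 11, averaged 2185 ± 338 at day 5 and 1898 ± 311 in controls (SD, n = 4 and 5), a log2 change of 0.20 ± 0.17 (SE, adjusted p = 0.39).

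**Figure D2:**
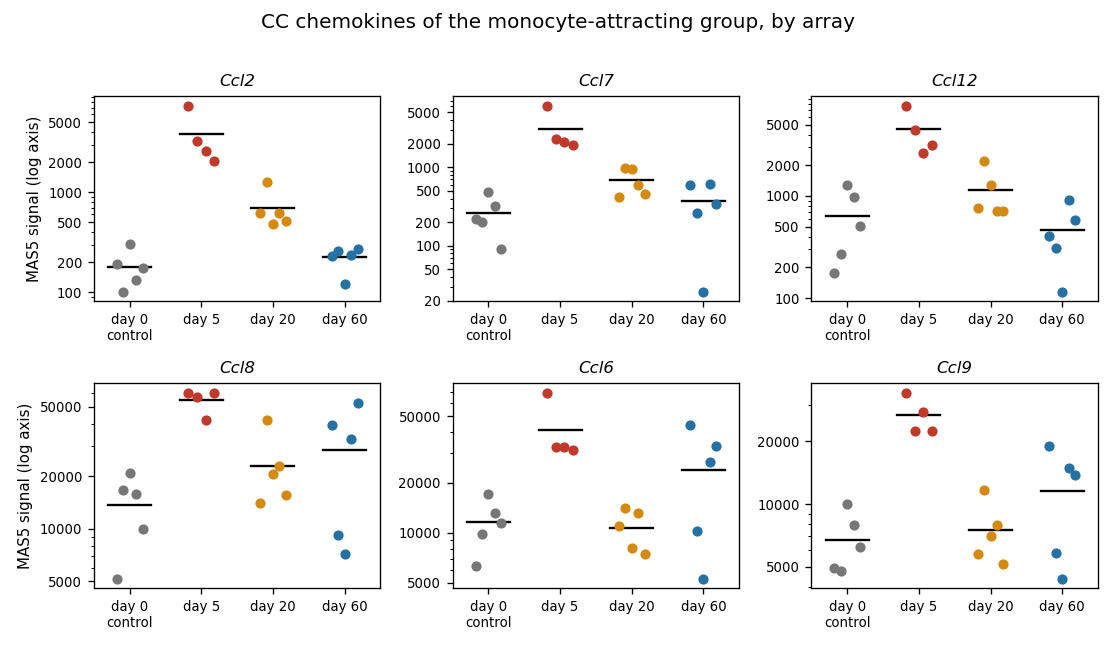
MAS5 signal on a log axis of CC ligands in each array of the day 0 controls, day 5, day 20 and day 60, with points for arrays and lines for group means. For Ccl2 the 4 day 5 points lie between 2052 and 7321 and the 5 day 20 points between 481 and 1255.

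Most macrophage markers also rose at day 5, and they split at day 20. At day 5, 7 of 10 tested markers rose (Cd68, Adgre1, Lyz2, Fcgr1, Fcgr3, Mrc1 and Msr1) and 1 fell (Cd14), with a median log2 change of 2.19. At day 20, 4 were higher than control (Adgre1, Lyz2, Fcgr1 and Fcgr3), 2 were lower (Cd163 and Cd14) and 4 did not pass, with a median of 0.73. The summed signal of the 11 markers with a probe set was 47717 to 104603 in the day 0 controls, 186387 to 251712 at day 5, 82154 to 179691 at day 20 and 39859.6 to 216753 at day 60. Of these, Itgam was under a mean signal of 300. At day 60 the sum was 152479, 114514 and 216753 in arrays A, D and E, and 80215 and 39860 in arrays B and C, the same split as for Ccl6, Ccl8, Ccl9, Ccl11, Ccl24 and Cxcl13 (sums of the 11 markers). The part of this cell type in the rise of the ligands was not tested.

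The eotaxins went the other way. Ccl11 and Ccl24 draw eosinophils through CCR3, and both were lower than control at day 20 while neither passed at day 5. Ccl11 (eotaxin 1, made by fibroblasts and other stromal cells) had signals of 4970.3, 4906, 6221, 4751 and 5094 in the day 0 controls, 8772, 5558, 5592 and 4980.4 at day 5, 3384, 3206, 3508, 3526 and 1613 at day 20 and 8367, 3293, 4387, 5816 and 11811 at day 60. The control arrays were close together, every day 20 array lay below them, and day 60 arrays spread on both sides. On the log2 scale it changed by 0.23 ± 0.29 at day 5 (SE, adjusted p = 0.58) and -0.79 ± 0.28 at day 20 (adjusted p = 0.0357). Against day 5, the day 20 level fell by 1.02 ± 0.29 (adjusted p = 0.0476), and against day 20 the day 60 level was higher (1.03 ± 0.28, adjusted p = 0.0109). The day 20 call against control ended without control A, C, D or E or day 20 B or E (adjusted p 0.0509 to 0.105). The call against day 5 ended when any array was left out other than day 60 A, B, C and E (adjusted p 0.0504 to 0.14).

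Ccl24 (eotaxin 2) had signals of 797, 238, 843, 233 and 563 in the day 0 controls, 306, 111, 122 and 113 at day 5, 121, 85.7, 73.5, 114 and 86.2 at day 20 and 1169, 105, 428, 1178 and 1665 at day 60. Day 20 arrays lay below every control array, 3 of 4 day 5 arrays lay at a similar level, and 3 of 5 day 60 arrays exceeded every control. At day 20 it was 2.95-fold lower than control, a log2 change of -1.56 ± 0.46 (SE, adjusted p = 0.0142). At day 5 the log2 change was -1.19 ± 0.48 (adjusted p = 0.064), which passed without control B or D or day 60 B (adjusted p 0.0143 to 0.0445). The day 60 level was higher than at day 20 (2.02 ± 0.46, adjusted p = 0.00333) and than at day 5 (1.65 ± 0.48, adjusted p = 0.0174), and the second of these ended without day 5 C (adjusted p 0.0507). Their receptor gene Ccr3 averaged 107, under the minimum, as did the eosinophil markers Epx, Prg2 and Siglecf. Of the 4 tested eosinophil and mast cell markers, 1 (Kit) was lower at day 5 (-0.58, adjusted p = 0.00556) and at day 20 (-0.80, adjusted p = 0.000288). The summed signal of all 8 markers was 9339.7 to 12431 in the day 0 controls, 7457 to 9333 at day 5, 6693 to 10734 at day 20 and 6203 to 13189.6 at day 60. Day 60 arrays A, D and E, the high ones for Ccl11 and Ccl24, were also those of high macrophage marker sums, whose part in these results was not tested.

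Ccl17, a CCR4 ligand made by dendritic cells, rose at day 20 and not at day 5. Its signals were 358, 348, 447, 459.8 and 373 in the day 0 controls, 683, 448, 278 and 368 at day 5, 506, 912, 1196, 473 and 850.3 at day 20 and 325, 481, 223, 381 and 352 at day 60. Every day 20 array lay above every control array, and day 5 arrays lay on both sides of the controls. The log2 change was 0.77 ± 0.23 at day 20 (SE, adjusted p = 0.0167) and 0.08 ± 0.25 at day 5 (adjusted p = 0.822), and the difference between day 20 and day 5 did not pass (0.69 ± 0.25, adjusted p = 0.114). The day 20 call ended without day 20 array C (adjusted p 0.0544). The other CCR4 ligand, Ccl22, averaged 225 ± 99.8 at day 20 and 147 ± 108 in controls (SD, n = 5 each) and was under the minimum, as was Ccr4. Of 5 tested dendritic and Langerhans cell markers, Itgax and Zbtb46 were higher at day 5 and at day 20, and the other 3 did not pass. The median log2 change of the 5 was -0.26 at day 5 and 0.53 at day 20. Cd209a was the 1 marker called higher at day 20 than at day 5. The summed signal of the 6 such markers with a probe set was 3466 to 6261 in the day 0 controls, 6267 to 7342 at day 5, 7331 to 10964 at day 20 and 4628 to 7645 at day 60. Their part in the Ccl17 result was not tested.

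Ccl27a and Ccl28 are epithelial ligands of CCR10. Ccl27a, made by keratinocytes, averaged 391 ± 45.6 at day 5, against 724 ± 269 in controls (SD, n = 4 and 5), with a log2 change of -0.67 ± 0.24 (SE, adjusted p = 0.04). Controls ran from 279 to 1005, with array B the low one, below every day 5 array. The call ended without control A, C, D or E or without any 1 of the day 5 arrays (adjusted p 0.0594 to 0.109). Day 60 was higher than day 5 (0.79 ± 0.24, adjusted p = 0.024), a call that ended without day 5 B (0.0741) or day 60 C (0.0607). Its probe set is of the _x_at kind, whose probes can match related transcripts such as copies of the gene. Ccl28 averaged 852 ± 47.5 at day 5 and 1215 ± 415 in controls (SD, n = 4 and 5) and did not pass (log2 change -0.41 ± 0.19, adjusted p = 0.111), but did without control A (0.0263). The keratinocyte marker sum was 11425 to 29014 in the day 0 controls, 7255 to 12535 at day 5, 2399.5 to 47288 at day 20 and 10959 to 46082 at day 60. Of its 5 markers, Krt5 was lower at day 20.

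The neutrophil-attracting CXC ligands split. Cxcl2 and Cxcl5 rose at day 20, Cxcl15 fell at day 5 and day 20, and the chosen probe set of Cxcl1 did not pass at any day. Cxcl2 (macrophage inflammatory protein 2), whose promoter held the kappaB-type motif shown above, had signals of 133, 98.9, 285, 256 and 151 in the day 0 controls, 706, 276, 283 and 315 at day 5, 380.0, 878, 1329, 296 and 200.1 at day 20 and 329, 179.5, 151, 209 and 202 at day 60. Day 20 arrays B and C were high and D and E lay in or near the control range. Against control it changed by 1.13 ± 0.36 on the log2 scale at day 20 (SE, adjusted p = 0.0213) and 0.77 ± 0.38 at day 5 (adjusted p = 0.124). Without day 20 B the day 20 adjusted p was 0.0684, and without day 20 C it was 0.0672. The day 20 call also ended with the 3' to 5' ratio of Actb as a covariate (1.06, adjusted p 0.0594). In a fit of only the 2 groups compared, its adjusted p was 0.0502.

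Cxcl5 had signals of 103, 96.5, 93.8, 103 and 20.5 in the day 0 controls, 889.5, 444, 191 and 314 at day 5, 1137, 1441, 4929.5, 235 and 35.8 at day 20 and 205, 22.1, 69.4, 62.6 and 51.0 at day 60. All 4 day 5 arrays lay above every control array, whereas day 20 ran from below most controls in array E to the highest value of any array in C. Its log2 change against control was 1.49 ± 0.69 at day 5 (SE, adjusted p = 0.103) and 2.23 ± 0.65 at day 20 (adjusted p = 0.0138). The day 20 change was 1.59 without array C (adjusted p 0.0379) and 2.89 without array E (0.000559). The day 5 change passed when either array was left out (0.0433 without day 20 C and 0.038 without day 20 E). Day 60 was lower than day 20 (-2.29 ± 0.65, adjusted p = 0.0151), with -1.65 without day 20 C and -2.95 without day 20 E. With the 3' to 5' ratio of Actb as a covariate, the day 20 call against control ended (1.79, adjusted p 0.0672). The call of day 60 against day 20 ended with that covariate (-1.72, 0.128) and in a fit of only the 2 groups compared (0.063).

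Cxcl15 (lungkine), a mouse neutrophil attractant of epithelia, showed the largest fall against control of any tested member. Its signals were 1906, 1517, 2049, 2494 and 2463 in the day 0 controls, 312, 225, 215 and 218 at day 5, 312, 399.9, 155, 165 and 201 at day 20 and 54.1, 1649.9, 432, 2575 and 805 at day 60. Every day 5 and day 20 array lay below every control array, and day 60 arrays reached from below all of these to above the controls. The mean was 242 ± 46.4 at day 5 and 247 ± 106 at day 20, against 2086 ± 408 in controls (SD, n = 4, 5 and 5). It was 6.33-fold lower at day 5 (log2 change -2.66 ± 0.53, SE, adjusted p = 0.000685) and 6.44-fold lower at day 20 (-2.69 ± 0.50, adjusted p = 0.000434). At day 60 the log2 change was -1.41 ± 0.50 (adjusted p = 0.155) and passed without day 60 D (0.0433). Luminal epithelium markers moved with it. All 6 (Krt8, Krt18, Krt19, Epcam, Foxa1 and Pgr) were lower at day 5 and at day 20, with medians of -4.28 and -4.06, and their summed signal was 55537 to 74989.7 in the day 0 controls, 4529 to 7679 at day 5, 2765 to 6395 at day 20 and 17934 to 56006 at day 60. The part of that tissue in the fall of Cxcl15 was not tested.

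The probe sets of Cxcl1 (KC, the main mouse neutrophil chemokine) disagreed. The chosen one, of highest signal and of the _x_at kind, averaged 3388 ± 1504 at day 5 and 3426 ± 1182 in controls (SD, n = 4 and 5), with a log2 change of -0.00 ± 0.32 (SE, adjusted p = 0.995). Tested on their own among all probe sets, the other 2 were higher at day 5, by 1.14 ± 0.40 (SE, adjusted p = 0.0363) and 1.48 ± 0.50 (adjusted p = 0.0292). Their day 20 changes were 0.81 (adjusted p = 0.124) and 1.24 (adjusted p = 0.057). Of 5 tested neutrophil markers, S100a8, S100a9 and Csf3r were higher at day 20, by 1.60, 1.93 and 0.59 on the log2 scale. At day 5 their changes of 0.85, 0.92 and 0.32 did not pass. The summed signal of the 6 neutrophil markers with a probe set was 3413 to 11809 in the day 0 controls, 4164 to 15529.8 at day 5, 5242 to 22968 at day 20 and 6184 to 12207 at day 60. Day 20 array E, with the lowest day 20 sum, was also the lowest day 20 array for Cxcl2 and Cxcl5. Cxcr2, the receptor of these ligands, averaged 64.3 and Cxcl3 averaged 118, both under the minimum.

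The 3 interferon-induced ligands of CXCR3 were raised at day 20, and 2 of them, Cxcl10 and Cxcl11, were raised at day 5. Cxcl10 (IP-10) had signals of 188, 350.1, 294, 257 and 351 in the day 0 controls, 1004, 1361, 772 and 918 at day 5, 968, 949, 529, 824 and 1191 at day 20 and 128, 399, 34.5, 348 and 308 at day 60. Every day 5 and day 20 array lay above every control array. On the log2 scale it changed by 1.51 ± 0.32 at day 5 (SE, adjusted p = 0.00104) and 1.33 ± 0.30 at day 20 (adjusted p = 0.00214). Day 60 was lower than day 20 by 3.13-fold (-1.65 ± 0.30, adjusted p = 0.000542).

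Cxcl11 (I-TAC) had signals of 278, 421, 92.5, 158 and 340.1 in the day 0 controls, 1075, 632, 813 and 755 at day 5, 819, 924, 402, 741 and 905 at day 20 and 348, 111, 289.7, 224 and 297 at day 60. Day 20 array C alone fell within the control range. The log2 change was 1.43 ± 0.29 at day 5 (SE, adjusted p = 0.000853) and 1.31 ± 0.27 at day 20 (adjusted p = 0.00128). A second probe set of Cxcl11, under the minimum, averaged 127.7 ± 70.0 at day 5 and 129.0 ± 45.2 at day 20. In controls it averaged 132.5 ± 52.7 (SD, n = 4, 5 and 5).

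Cxcl9 (MIG) had signals of 959.6, 438, 376, 200.1 and 2271 in the day 0 controls, 1397, 2188, 1477 and 1137 at day 5, 1905, 2078, 1902, 1574 and 2313 at day 20 and 397, 788, 56.4, 257 and 109 at day 60. Control array E was at the level of the day 20 arrays, and the other 4 control arrays lay below every day 5 array. Against control it changed by 1.16 ± 0.49 on the log2 scale at day 5 (SE, adjusted p = 0.0751) and 1.5 ± 0.46 at day 20 (adjusted p = 0.0189). Without control E the day 5 change passed (0.0089), as it did without day 60 B (0.048), and without control D the day 20 call ended (0.0612). A second probe set of Cxcl9, tested on its own, was higher at day 5 by 0.76 ± 0.27 (SE, adjusted p = 0.0348) and at day 20 by 0.81 ± 0.25 (adjusted p = 0.0219). The receptor gene Cxcr3 did not pass and averaged 763 ± 98.3 at day 5 and 807 ± 221 at day 20, against 729 ± 190.0 in controls (SD, n = 4, 5 and 5), with log2 changes of 0.09 ± 0.20 and 0.13 ± 0.19 (SE). Of 6 T and NK cell markers with a probe set, 5 (Cd3d, Cd3e, Cd3g, Cd4 and Nkg7) were under a mean signal of 300, and the sixth, Cd8a, changed by -0.32 at day 5 (adjusted p = 0.0946). Nkg7, a gene of NK and cytotoxic T cells, averaged 459 ± 39.2 at day 5 and 348 ± 84.5 at day 20, against 111 ± 79.0 in controls (SD, n = 4, 5 and 5), untested, and its part in the CXCR3 ligand results was not tested. Of the 6, only Nkg7 is given by group means, and it does not stand for the list. Cd8a did not pass at day 20 either (-0.12). The sum of the 6, Nkg7 among them, overlapped between controls and every day. It was 1760.2 to 2088 in the day 0 controls, 1837 to 2227 at day 5, 1699 to 2511 at day 20 and 1240.3 to 1976 at day 60.

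**Figure D3:**
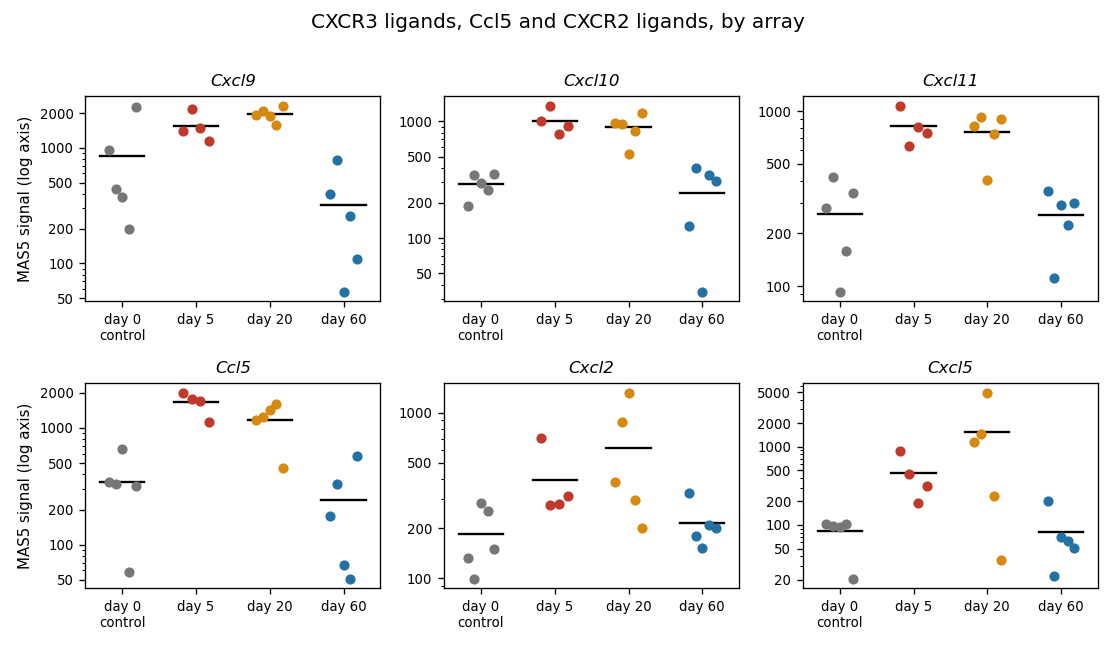
MAS5 signal on a log axis of the CXCR3 ligands, Ccl5, Cxcl2 and Cxcl5 in each array of the day 0 controls, day 5, day 20 and day 60, with points for arrays and lines for group means. Every day 5 and day 20 point of Cxcl10 lies above the control points, while Cxcl5 at day 20 spreads between 35.8 and 4930.

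Cxcl13, the B cell attractant of lymphoid follicles, was the member with the largest estimate at day 60. Its signals were 544, 1145, 2141, 1586 and 1267 in the day 0 controls, 1796, 409, 469 and 554 at day 5, 1039, 617, 1781, 1054 and 668 at day 20 and 5177, 1595, 2349, 4759 and 18940.3 at day 60. The rise at day 60 was uneven: array E was the highest of all 19, A and D were above every control, C was just above them and B lay within their range. The log2 change against control was 1.79 ± 0.52 (SE, adjusted p = 0.0906), and it passed without day 60 B (0.0399). Day 60 was higher than day 20 (2.11 ± 0.52, adjusted p = 0.00588) and than day 5 (2.57 ± 0.55, adjusted p = 0.002). A second probe set of Cxcl13, tested on its own, changed less. At day 60 it did not pass against control (0.66 ± 0.32, SE, adjusted p = 0.344) or against day 20 (0.87 ± 0.32, adjusted p = 0.0609). Against day 5 it passed (1.19 ± 0.33, adjusted p = 0.0149). The receptor gene of Cxcl13, Cxcr5, averaged 224. Of 5 B and plasma cell markers with a probe set, 3 (Cd79a, Cd79b and Pax5) were under 300, and their sum was 1294 to 2577 in the day 0 controls, 915 to 1556 at day 5, 2356 to 2696 at day 20 and 1553 to 2693 at day 60. Of the 2 tested, Jchain was lower at day 5 than in controls and higher at day 60 than at day 5 (1.22, adjusted p = 0.00457). The other, Ms4a1, was higher at day 20 than at day 5 and was called in no comparison with day 60. Day 60 arrays A, D and E, high for Cxcl13, were also those of high macrophage marker sums. The part of these cell types in the Cxcl13 result was not tested.

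**Figure D4:**
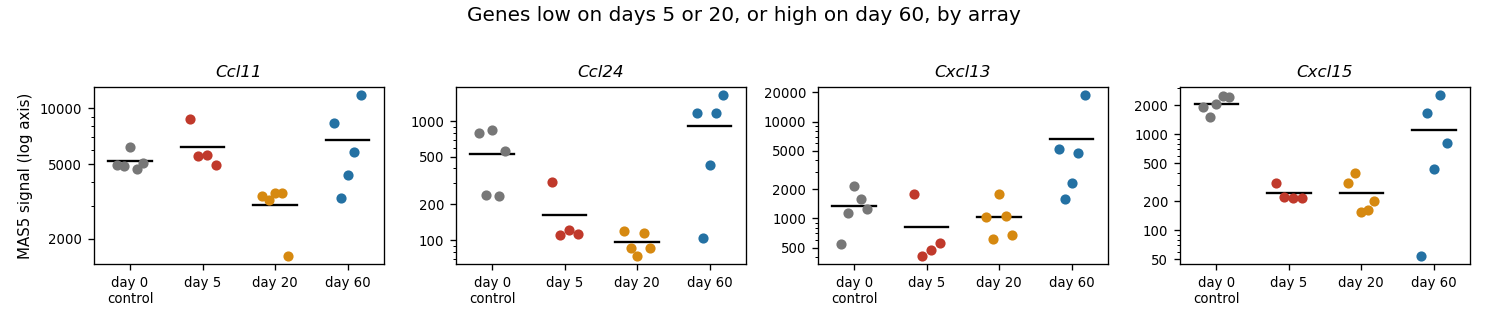
MAS5 signal on a log axis of Ccl11, Ccl24, Cxcl13 and Cxcl15 in each array of the day 0 controls, day 5, day 20 and day 60, with points for arrays and lines for group means. Cxcl15 lies between 155 and 399.9 at day 5 and day 20, below the control points, and Cxcl13 at day 60 spreads between 1595 and 18940.

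Of the remaining tested ligands, Cxcl17 passed against control and the others did not. Cxcl12, the ligand of CXCR4, averaged 14038 ± 2569 at day 5 and 16841 ± 5564 at day 20, against 14991 ± 4047 in controls (SD, n = 4, 5 and 5), with log2 changes of -0.08 ± 0.28 and 0.13 ± 0.26 (SE). Cxcl14, a chemokine of epithelia and stroma, had log2 changes of -0.08 ± 0.19 and -0.17 ± 0.18 at these days. Cxcl16, a membrane-bound ligand of CXCR6, averaged 1285 ± 191 at day 5, against 910.1 ± 298 in controls (SD, n = 4 and 5), a change of 0.50 ± 0.23 (SE) that did not pass (adjusted p = 0.0987). A second probe set of Cxcl16, tested on its own, was higher at day 5 by 0.78 ± 0.26 (SE, adjusted p = 0.0296) and at day 20 by 0.93. Cxcl17, an epithelial chemokine, averaged 687 ± 103 at day 5, against 1399 ± 525 in controls (SD, n = 4 and 5), and fell by 0.84 ± 0.27 (SE, adjusted p = 0.0197). That call ended without control A (0.0516), control C (0.0548) or day 5 C (0.0564), and control B lay below every day 5 array. It also ended with the 3' to 5' ratio of Actb as a covariate (-0.6, adjusted p 0.0701). Cx3cl1 (fractalkine, an adhesive ligand of endothelium) had log2 changes of -0.05 ± 0.20 at day 5 and 0.24 ± 0.19 at day 20. It was lower at day 60 than at day 20 (-0.57 ± 0.19, adjusted p = 0.0392), which ended without day 20 A, B or C or day 60 A, C or E (0.0691 to 0.117). Ccl25, the thymic and gut ligand of CCR9, had log2 changes of -0.36 ± 0.23 at day 5 and -0.41 ± 0.22 at day 20. Ccl20 and Xcl1 were under the minimum, with Xcl1 at 373 ± 75.8 at day 5, against 151 ± 147 in controls (SD, n = 4 and 5), the groups overlapping.

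Among the 9 tested receptors, 5 rose at day 5 (Ccr1, Ccr2, Ccr9, Cx3cr1 and Cxcr4), and all but Ccr1 of these also rose at day 20. Cxcr4, the receptor of Cxcl12 on leukocytes, pericytes and tip cells of new vessels, had signals of 1175, 737, 964, 855 and 1331 in the day 0 controls, 8313, 9233, 4777 and 7153 at day 5, 4346, 8274, 6237, 4983 and 5724 at day 20 and 1868, 2855, 829.7, 769 and 1605 at day 60. Every day 5 and day 20 array lay above every control and day 60 array. The mean was 7369 ± 1926 at day 5 and 5913 ± 1503 at day 20, against 1012 ± 241 in controls (SD, n = 4, 5 and 5). The change was 6.65-fold at day 5 (log2 2.73 ± 0.30, SE, adjusted p = 1.66e-06) and 5.38-fold at day 20 (2.43 ± 0.28, adjusted p = 3.35e-06). The chosen probe set of its ligand Cxcl12 passed in neither comparison, while with the mean over probe sets Cxcl12 was higher at day 20 (0.35, adjusted p = 0.0113). That mean includes a probe set with a mean signal of only 94.9. A second Cxcl12 probe set over the minimum, tested on its own, did not pass at day 20 (0.35 ± 0.19, SE, adjusted p = 0.189). The difference between Cxcr4 and Cxcl12 was not tested. Blood endothelium markers rose with Cxcr4, 6 of 6 at day 5 and at day 20 (medians 2.66 and 2.08). Their summed signal was 4917 to 8929.6 in the day 0 controls, 37132 to 43012 at day 5, 25006 to 43128 at day 20 and 4787 to 8384 at day 60. Pericyte and smooth muscle markers also rose, 4 of 5 at day 5 and 5 of 5 at day 20 (medians 1.10 and 1.66), with a summed signal of 58290 to 75474 in the day 0 controls, 119834 to 157000 at day 5, 235351 to 290952 at day 20 and 56863 to 157220 at day 60. The part of either list in the Cxcr4 result was not tested.

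Ccr2, the receptor of Ccl2, Ccl7 and Ccl12 on inflammatory monocytes, had signals of 1153, 1395, 2051, 1593 and 1080.4 in the day 0 controls, 10033, 8383, 5123 and 7605 at day 5, 3563, 9126, 5396, 5367 and 2748 at day 20 and 3316, 1379, 882, 2221 and 3641 at day 60. Every day 5 and day 20 array lay above every control array. Its log2 change against control was 2.34 ± 0.36 at day 5 (SE, adjusted p = 6.74e-05) and 1.70 ± 0.34 at day 20 (adjusted p = 0.000895). The 2 other probe sets over the minimum, tested on their own, changed by 0.81 ± 0.31 and 0.78 ± 0.31 at day 20 (SE). Neither passed at that day (adjusted p = 0.0636 and 0.0673). The receptor's change between day 20 and day 5 did not pass (-0.64 ± 0.36, adjusted p = 0.344), while that of its ligand Ccl2 did, as given above. Day 60 was lower than day 20 (-1.21 ± 0.34, adjusted p = 0.0143). That call ended with the 3' to 5' ratio of Actb as a covariate (0.0611) and in a fit of only the 2 groups compared (0.0526).

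Cx3cr1, the fractalkine receptor of patrolling monocytes and tissue macrophages, had signals of 403, 411, 455, 367 and 367 in the day 0 controls, 2858, 2721, 1095 and 2235 at day 5, 1664, 3289, 2637, 1616 and 625 at day 20 and 328, 492, 574, 339.8 and 438 at day 60. The control arrays lay close together, and all day 5 and day 20 arrays exceeded them. On the log2 scale it changed by 2.14 ± 0.33 at day 5 (SE, adjusted p = 7.24e-05) and 1.87 ± 0.31 at day 20 (adjusted p = 0.000172). Its ligand gene Cx3cl1 passed in neither. The other probe set of Cx3cr1 averaged 17.2, under the minimum.

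Ccr1, a receptor of Ccl3, Ccl5, Ccl6 and Ccl9 on monocytes and neutrophils, had signals of 468, 415, 1129.9, 873 and 574 in the day 0 controls, 6012, 4201, 1697 and 2432 at day 5, 876, 2589.9, 1838, 1148 and 584 at day 20 and 1062, 393, 339.9, 1449.8 and 1350.4 at day 60. Day 5 arrays lay above every control, and day 20 arrays overlapped both groups. The log2 change was 2.14 ± 0.45 at day 5 (SE, adjusted p = 0.00121) and 0.84 ± 0.43 at day 20 (adjusted p = 0.148).

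Ccr9, the receptor of Ccl25, rested on 1 of its 5 probe sets. That probe set, of the _x_at kind, had signals of 146, 163, 232, 315 and 182 in the day 0 controls, 779, 554, 478 and 539 at day 5, 334, 473, 549, 391 and 265 at day 20 and 143, 20.3, 218, 254 and 227 at day 60, and its 4 other probe sets averaged 63.1 to 100.3. Against control it changed by 1.17 ± 0.28 on the log2 scale at day 5 (SE, adjusted p = 0.0032) and 0.70 ± 0.26 at day 20 (adjusted p = 0.0496). With the mean over all its probe sets these were 0.24 (adjusted p = 0.22) and 0.10 (adjusted p = 0.636). The day 20 call also ended in 14 of the 19 omissions of an array (0.0509 to 0.12), those other than control D, day 20 E and day 60 B, C and D.

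**Figure D5:**
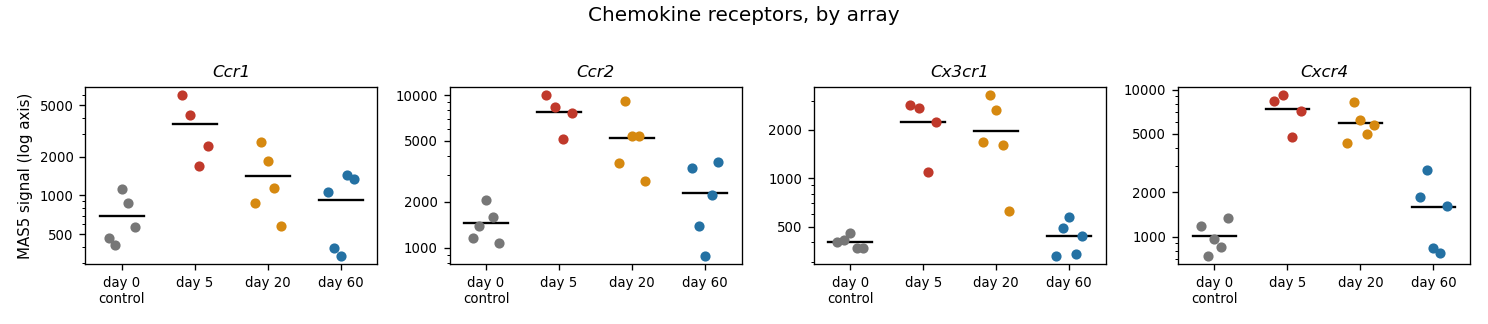
MAS5 signal on a log axis of chemokine receptor genes in each array of the day 0 controls, day 5, day 20 and day 60, with points for arrays and lines for group means. The day 5 and day 20 points of Cxcr4 lie between 4346 and 9233, above all control points, which end at 1331.

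The other tested receptors, Ccr6, Cxcr3, Cxcr6 and Xcr1, did not pass against control at any day. Ccr6, which answers to Ccl20, was lower at day 60 than at day 20 (-0.51 ± 0.17, adjusted p = 0.0412), a call that ended without day 20 A, B, D or E or day 60 A or B (0.0561 to 0.109). Cxcr6 and Xcr1, the receptor of Xcl1 on cross-presenting dendritic cells, had log2 changes of -0.30 ± 0.22 and -0.64 ± 0.32 at day 5 (SE). Ccr7, the receptor that leads dendritic cells to lymph nodes, averaged 22.3, and Ccr3, Ccr4, Ccr8, Ccr10, Cxcr2 and Cxcr5 were also under the minimum.

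Between days 5 and 20 the calls were of 6 CC ligands. Against day 5, day 20 had 6 of 36 members lower (Ccl2, Ccl6, Ccl7, Ccl9, Ccl11 and Ccl12), beside 2.25% of all tested genes. None was higher by limma, beside 3.05%, and 1 (Ccl17) was at an unadjusted p under 0.05. Of these calls, 1 (Ccl9) passed in every alternative. No receptor was among the 6, and whether receptors differ from ligands in this was not tested. Against day 20, day 60 had 13 lower, beside 11.2% of all tested genes, and 3 higher (Ccl11, Ccl24 and Cxcl13), beside 11.0%. The lower ones were Ccl2, Ccl5, Ccl17, Cx3cl1, Cxcl5, Cxcl9, Cxcl10, Cxcl11 and the receptors Ccr2, Ccr6, Ccr9, Cx3cr1 and Cxcr4. Against day 5, day 60 had 13 lower and 3 higher (Ccl24, Ccl27a and Cxcl13), beside 12.2% of all tested genes in each direction. Ccl2 was 10.9-fold lower in that comparison (-3.44 ± 0.31, SE, adjusted p = 3.06e-07), and Cxcr4 4.79-fold lower (-2.26 ± 0.30, adjusted p = 2.67e-05).

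Members that lie next to each other in the gene order of GRCm38.p6 are given by run, without a test against other members. In the chromosome 11 run Ccl2, Ccl7, Ccl11, Ccl12, Ccl8 and Ccl1, 4 of the 5 tested genes rose at day 5, while at day 20 Ccl2 was higher and Ccl11 lower. In the second chromosome 11 run, Ccl5, Ccl9, Ccl6, Ccl3 and Ccl4, 3 of 4 tested genes rose at day 5. In the chromosome 5 run Cxcl5, Cxcl3, Cxcl15, Cxcl1 and Cxcl2, Cxcl15 was lower at day 20 while Cxcl2 and Cxcl5 were higher. In the other chromosome 5 run, Cxcl9, Cxcl10 and Cxcl11, 2 of 3 rose at day 5 and 3 of 3 at day 20. Receptors Ccr9, Cxcr6, Xcr1, Ccr1, Ccr3 and Ccr2 lie together on chromosome 9, and 3 of the 5 tested rose at day 5.

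Other genes of the pathway were taken as lists by role. Of the 5 atypical receptors, which bind chemokines without signalling through G proteins, Ackr1 was lower at day 5, at 1267 ± 82.1, against 2843 ± 775 in controls (SD, n = 4 and 5), a log2 change of -1.07 ± 0.25 (SE, adjusted p = 0.00244). Ccrl2 was higher at day 20 (0.51, adjusted p = 0.0377), and the other 3 did not pass at either day. The platelet chemokine genes Pf4 and Ppbp were both higher at day 5 (1.17, adjusted p = 0.00061, and 1.5, adjusted p = 0.0392). At day 20 Ppbp stood at 9121 ± 5902, against 471 ± 212 in controls (SD, n = 5 each), a log2 change of 3.75 ± 0.51 (SE, adjusted p = 1.95e-05). Dpp4, a peptidase that trims and inactivates several chemokines, was lower at day 5 (-1.69, adjusted p = 0.00231) and at day 20 (-1.34, adjusted p = 0.00918). Of 13 tested genes that carry the receptor signal, 5 were higher at day 5 (Arrb2, Fgr, Gnai2, Pik3cg and Rac2) and 1 lower (Grk3), and at day 20 5 were higher (Arrb2, Fgr, Gnai2, Rgs1 and Rgs2). Of 6 tested cytokine genes that induce chemokines, Il6 and Csf1 were higher at day 5 (2.10 and 1.13), and Il6 and Il1b at day 20 (1.18 and 1.82). Tnf, Ifng, Il4, Il13, Csf2 and Csf3 were under the minimum.

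A set of 10 tested members passed in none of the 6 comparisons: Ccl4, Ccl25, Ccl28, Cxcl1, Cxcl12, Cxcl14, Cxcl16, Cxcr3, Cxcr6 and Xcr1. Their log2 changes ran from -0.64 to 0.50, with a lowest adjusted p of 0.0751. For Cxcl1, Cxcl12, Cxcl16 and Ccl28 this rests on the choice of probe set. With the mean over probe sets, limma called Cxcl1 lower at day 60 than at day 20 (-1.01, adjusted p = 0.0428), Cxcl12 likewise (-0.30, adjusted p = 0.0337), Ccl28 likewise (-0.41, adjusted p = 0.0446) and Cxcl16 likewise (-0.64, adjusted p = 0.0387). Ccl4 and Xcr1 passed under other settings: with array weights Ccl4 was higher at day 20 (0.40, adjusted p = 0.0323) and Xcr1 lower at day 5 (-0.83, adjusted p = 0.0368). A second Ccl28 probe set, under the minimum, averaged 448 ± 88.3 at day 20, against 105 ± 51.7 in controls (SD, n = 5 each). Second probe sets over the minimum were tested on their own at day 5 for other members too. Those of Ccl6, Ccl9 and Ccr1 changed by 2.12, 2.16 and 1.86 on the log2 scale, the 2 of Ccr2 by 1.52 and 1.33, and that of Cxcl15 by -2.80 (adjusted p 1.32e-05 to 0.0121), each in the direction of the chosen one. The second probe set of Cxcl14 changed by 0.55 (adjusted p = 0.207), against -0.08 for the chosen one, and that of Cxcl13 by -0.53 (adjusted p = 0.24).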

How the data were processed

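The arrays, 20 in all, were Affymetrix Mouse Genome 430 2.0 and each gave a table column of intensity values, deposited by the authors as MAS5 signals on a linear scale. Per the submitters' processing notes and the labels, these came from GCOS 1.3 with a scaling factor of 1500. No other normalization was applied. Of 45101 probe sets, the 34958 with 1 symbol named 18194 genes, and the probe set of highest mean over the 19 grouped arrays stood for a gene. Letters are those of the sample titles. The array of conflicting title and source name was left out, and 0 table columns went without a sample.

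Tests used R 4.3.3 and limma 3.58.1 on log2(signal + 100). The 19 arrays shared a single linear model with 1 mean per group, moderated by eBayes with an intensity trend, for 13595 genes with a mean signal of at least 300. Two-sided p-values were Benjamini-Hochberg adjusted over all of these, and a gene was called at an adjusted p under 0.05. The fit was tested on simulated data with known changes.

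Values in every array are given for the 21 members called with at least a 2-fold change against control or between days, and others are given by range, mean or count. Ccl17 and Ccl3, also given in every array, and second probe sets were named after their values were seen. The members and lists were chosen with earlier results of these data known. Promoters and gene order came from RefSeq tables of GRCm38.p6. Alternatives were a pseudocount of 1 or 500, no minimum signal or 1000, quantile or 75th percentile scaling, no trend in eBayes, array weights, a fit of only the 2 groups compared, averaged probe sets, the title letter as a block, either placing of the ungrouped array, a covariate for the 3' to 5' ratio of Actb and the omission of each array. Testing every probe set on its own was chosen after seeing the data.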

Additional observations from a re-analysis of the deposited data

Results flagged for a closer look

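The rule that marked an array as far from its group has a chance rate of about 1 in 20 only for independent, normally distributed values. It was applied to signals on the linear scale, and members share arrays, so counts cannot be set against that rate. Single arrays stood far from the rest of their group in 18 of 144 pairs of a tested member and a group. Of these, 8 were day 5 array B, which was high against the other 3 day 5 arrays for Ccl6 (69291, against 31308 to 32557), Ccl7 (6060, against 1927 to 2279), Ccl11 (8772, against 4980 to 5592), Cxcl13 (1796, against 409 to 554), Cxcl2 (706, against 276 to 315), Ccl24 (306, against 111 to 122) and Cxcl15 (312, against 215 to 225), and low for Ccl27a (323, against 407 to 418).

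At day 20, array B was high for Ccl2 (1255, against 481 to 622), array C for Cxcl5 (4930, against 35.8 to 1441), and arrays E and D were low for Ccl11 (1613, against 3206 to 3526) and for Cxcl1 (1722, against 3886 to 4393). At day 60, array C was low for Ccl2 (123, against 232 to 270), array E high for Cxcl13 (18940, against 1595 to 5177) and array A high for Cxcl5 (205, against 22.1 to 69.4). Among the day 0 controls, array C was high for Ccl11 (6221, against 4751 to 5094), array B low for Cxcl1 (1357, against 3646 to 4321) and array E low for Cxcl5 (20.5, against 93.8 to 103).

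In 15 cases a member differed between 2 days by limma while its log2 changes against control had opposite signs and at least 1 of those changes was called. The days were set against the same controls, and the values are log2 differences between the days. For day 20 against day 5 these were Ccl11 (-1.02, adjusted p 0.0476) and Ccl6 (-1.89, 0.0214). For day 60 against day 20 they were positive for Ccl11 (1.03) and Ccl24 (2.02), and negative for Ccl17 (-0.93), Ccl5 (-2.05), Ccr9 (-0.95), Cxcl10 (-1.65), Cxcl5 (-2.29) and Cxcl9 (-2.55), with adjusted p of 0.000542 to 0.0151. For day 60 against day 5 the difference was 0.79 for Ccl27a, and -3.08, -2.57, -1.41 and -1.83 for Ccl12, Ccl5, Ccr9 and Cxcl10 (adjusted p 0.000151 to 0.024). None of these members was called at day 60 against control. In no case were both changes against control called. The uncalled ones included -0.08 for Ccl6 at day 20, and -0.06 for Cxcl5 and -1.05 for Cxcl9 at day 60.

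The ungrouped array entered no comparison. It lay above every control array in 21 of the 36 tested members and below in 5. Against the 4 day 5 arrays it was within their range in 22, above it in 8 and below it in 6.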

How the results depend on the processing

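Of the 70 calls of members in 6 comparisons, none changed direction in any of 14 alternative settings or 19 omissions of an array, and 43 passed in every one that gave them a value: 13 of 17 at day 5 and 6 of 15 at day 20 against control, 1 of 6 for day 20 against day 5, 10 of 16 for day 60 against day 20 and 13 of 16 for day 60 against day 5. A minimum signal of 1000 left 17 members to test, so fewer could be called: 9 at day 5, 6 at day 20, 7 for day 60 against day 20 and 9 for day 60 against day 5. With the ungrouped array counted as a control, 8 members were called at day 20 and 1 for day 20 against day 5, and with array weights 2 were called at day 60 against control; the cause was not tested. The Actb 3' to 5' ratio, which ran from 4.15 to 9.12 in the day 0 controls, 2.95 to 7.31 at day 5, 2.60 to 7.56 at day 20 and 4.32 to 14.0 at day 60, ended 11 calls as a covariate. Leaving out 1 array gave 15 to 19 calls at day 5, 12 to 16 at day 20, 0 to 1 at day 60, 2 to 6 for day 20 against day 5 (2 without day 5 B, 3 without day 20 E), 14 to 17 for day 60 against day 20 and 15 to 19 for day 60 against day 5. No label says whether the title letters pair arrays, and the correlations of deviations from group means cannot settle it. Over 27 same-letter pairs of different groups these ran from -0.28 to 0.35 (median 0.02), and 11 pairs were over 0.1. Over 108 pairs of different letters and groups they ran from -0.45 to 0.40 (median -0.03), and 32 were over 0.1. With the letter as a replicate block, 17 members were called at day 5, 13 at day 20, 0 at day 60, 4 for day 20 against day 5, 16 for day 60 against day 20 and 16 for day 60 against day 5.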
